A study of Homo sapiens with 6 samples.

Results

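Heterotrimeric G proteins and the proteins that start, stop and redirect their signals were examined in A549 cells, an established human lung adenocarcinoma line. The members were 51 genes chosen by symbol among the 58676 genes listed, namely 13 genes of α subunits (Gs, Gi/o, Gq/11 and G12/13 classes), 5 of β subunits, 7 of γ subunits, 12 regulators of G protein signalling (RGS proteins), 3 GPSM proteins, 3 folding factors (RIC8A, RIC8B, PDCL), 5 G-protein-coupled receptor kinases (GRKs) and 3 arrestins or arrestin-related genes. RNA sequencing of poly(A) RNA had been performed on 3 libraries of A549 Rec and 3 of A549 MOCK. According to the methods, A549 Rec cells carried a human recoverin cDNA with a myc tag in a retroviral vector. A549 MOCK cells carried the same vector without an insert, and selection was with puromycin. The abstract of the study instead speaks of transfection with a plasmid. Whether clones were picked is not given in the sources used here. The labels give 6 days of culture in a high-glucose medium with calf serum and methylcellulose, and the methods describe the RNA as coming from confluent 2D dishes. Neither source says that the 3 libraries of an arm came from separate transductions, and the p-values below therefore measure only the spread between these libraries.

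Recoverin was checked at the outset. RCVRN, the calcium sensor of photoreceptors, was listed at a TPM of 0 in the 3 A549 MOCK libraries and at 322, 338 and 339 in the A549 Rec libraries. TPM, the deposited unit, is the reads of a gene divided by its length and scaled to an equal sum in each library, and the reads recovered from it were 15183490 to 18572167 per library. The epithelial keratins KRT18 and KRT8 were the markers with the highest levels, with means over the 6 libraries of 2941 and 2504 TPM, and CDH1 had a mean of 137 TPM, whereas KRT19 and EPCAM were at 0.14 and 2.08 TPM. The alveolar markers SFTPC and NKX2-1 were at 0.20 and 0.04 TPM, so that of the alveolar type II list only ABCA3, at 23.4 TPM, was well detected, and the leukocyte markers PTPRC, CD3E and CD14 were at 0.02, 0 and 6.11 TPM. The share of TPM on mitochondrially encoded genes was 13.6%, 15.7% and 34.5% for A549 MOCK replicates 1 to 3, and for A549 Rec it was 17.3%, 13.3% and 26.9%. Both replicate 3 libraries thus stood apart from the others. Values without A549 MOCK replicate 3 or without both replicate 3 libraries are given beside several differences, and others in the closing section.

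A heterotrimeric G protein is an α subunit that binds guanine nucleotide and a βγ pair that stays together. An activated receptor makes the α subunit exchange GDP for GTP, after which α and βγ act on separate effectors until GTP is hydrolysed, a step that RGS proteins speed up. Gs raises and Gi lowers cAMP, Gq/11 acts through phospholipase Cβ, and G12/13 acts through exchange factors of small GTPases. GRKs phosphorylate active receptors, and arrestins then bind these receptors, uncouple them from G proteins and link them to endocytosis. Recoverin is best known as a calcium-dependent inhibitor of GRK1 in rod photoreceptors, and the study asked what recoverin does in cancer cells, with GPCR signalling among its topics.

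The end of the α subunit coding sequence is shown for the 10 α genes that passed the filter on low TPM, because the C-terminal tail is the part that receptors read and the site that tells the classes apart. The sequences are the last 8 codons and the stop codon of the GENCODE v44 canonical transcripts (GRCh38), printed from 5′ to 3′ on the coding strand, with the fourth codon before the stop in capitals.
GNAS (chr20:58910803-58910829, plus strand): caccttcgtcagTACgagctgctctaa
GNAL (chr18:11881109-11881135, plus strand): cacctcaagcagTATgagctcttgtga
GNAI1 (chr7:80217467-80217493, plus strand): aatctaaaagatTGTggtctcttttaa
GNAI2 (chr3:50257664-50257690, plus strand): aacctgaaggacTGCggcctcttctga
GNAI3 (chr1:109592207-109592233, plus strand): aacttaaaggaaTGTggactttattga
GNAZ (chr22:23123405-23123431, plus strand): aatctcaagtacATTggcctttgctga
GNAQ (chr9:77721323-77721349, minus strand): aacctgaaggagTACaatctggtctaa
GNA11 (chr19:3121153-3121179, plus strand): aacctcaaggagTACaacctggtctga
GNA12 (chr7:2731181-2731207, minus strand): aacctgaaggacATCatgctgcagtga
GNA13 (chr17:65014257-65014283, minus strand): aacctcaagcagCTTatgctacagtga

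The fourth codon from the end was a cysteine codon (TGT or TGC) in GNAI1, GNAI2 and GNAI3, the position that pertussis toxin is known to modify, and was ATT in GNAZ, whose product is known to be insensitive to the toxin. GNAS, GNAL, GNAQ and GNA11 had a tyrosine codon (TAC or TAT) there, while GNA12 had ATC and GNA13 had CTT. Over these 27 bases, GNAQ and GNA11 differed at 3 positions, GNA12 and GNA13 at 6, and each pair of the GNAI genes at 8. The coding sequence of these pairs thus differs in this stretch even where the protein tails are alike. Whether reads could be told apart between them was not tested.

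The γ subunits are shown by their last 4 codons and the stop codon, since the cysteine codon in capitals is the site where the lipid anchor of the βγ pair is attached.
GNG12 (chr1:67705451-67705465, minus strand): TGCatcatcttatag
GNG11 (chr7:93926202-93926216, plus strand): TGTgttatttcataa
GNG4 (chr1:235552109-235552123, minus strand): TGTaccattctctaa
GNG2 (chr14:51966673-51966687, plus strand): TGTgccatcctttaa
The last codon before the stop was a leucine codon in GNG12 (TTA), GNG4 (CTC) and GNG2 (CTT), which as a rule directs geranylgeranylation, and a serine codon (TCA) in GNG11, which directs farnesylation.

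Of the 51 members, 41 reached 1 TPM in 3 or more of the 6 libraries and were tested, 22 had a mean of at least 10 TPM and 4 had a mean of at least 100 TPM, which were GNB2, GNG12, GNB1 and GNAS. Levels within each class are compared on the TPM scale, that is per length, and the plot of members by library shows that a few genes led each class.

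**Figure D1:**
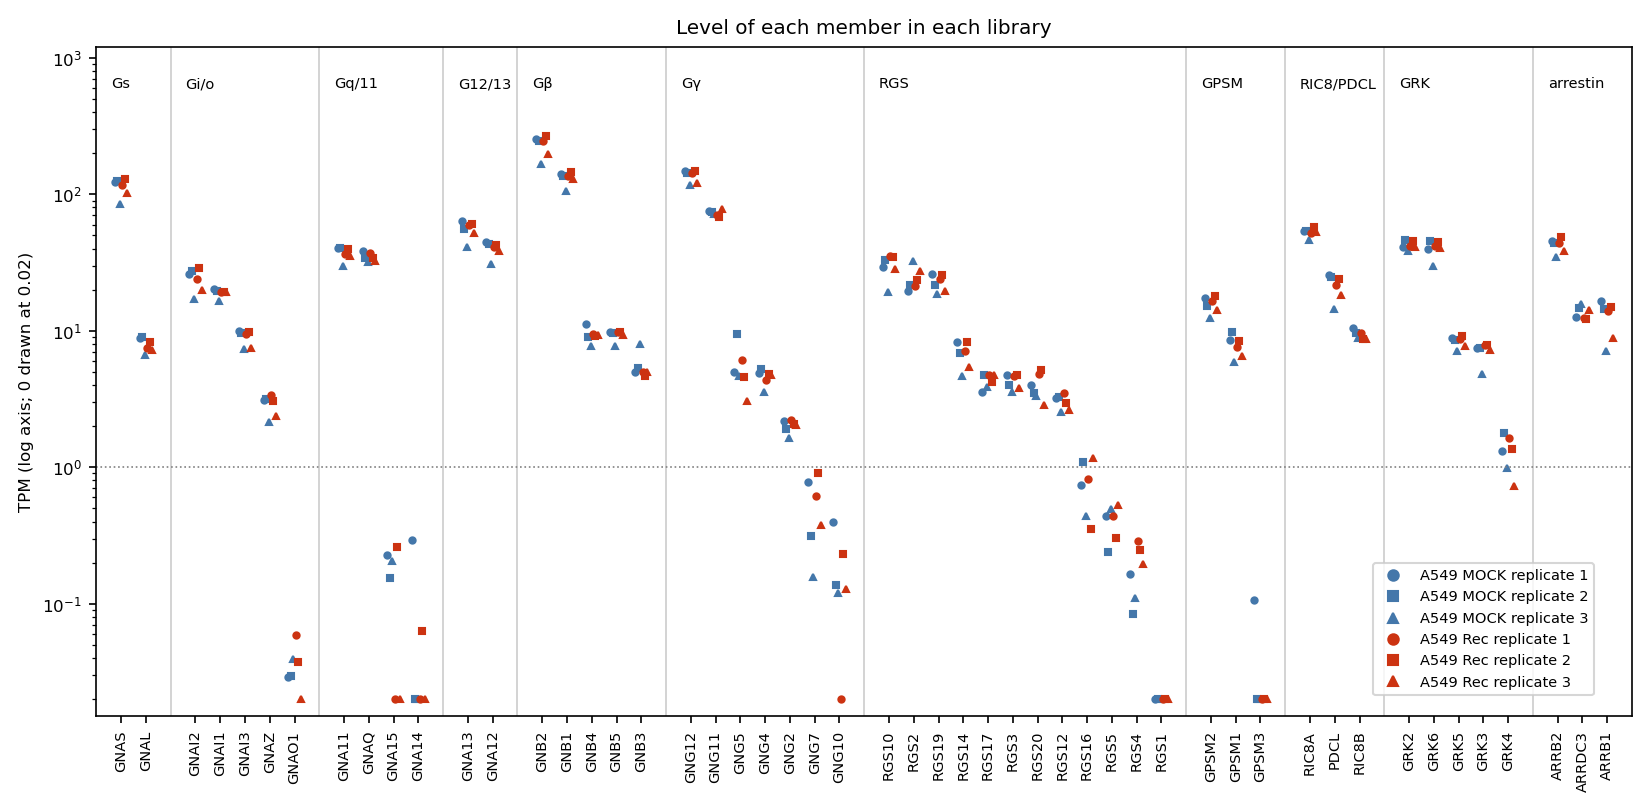
Each point is the TPM of a member (log axis) in 1 library, with A549 MOCK in blue, A549 Rec in red and the replicate number as the marker shape, and members are ordered by mean within each class. The dotted line marks 1 TPM, the points of the 2 groups lie among each other in nearly every column, and the highest member is GNB2 at 166 to 265 TPM.

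GNAS, the gene of the α subunit that stimulates adenylyl cyclase (chromosome 20, 58839718 to 58911192, plus strand), was the α gene with the highest level. Its TPM was 123, 125 and 84.8 in replicates 1 to 3 of A549 MOCK and 117, 129 and 102 in those of A549 Rec, and the order of replicates is kept below. GNAL, the olfactory relative of GNAS, was at a mean of 7.91 TPM, and 36.3% of its canonical exons lie opposite exons of MPPE1 (mean 8.75 TPM).

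Among the Gi/o genes, which inhibit adenylyl cyclase, GNAI2 (chromosome 3, 50226292 to 50259355, plus strand) had 26.0, 27.4 and 17.1 TPM in A549 MOCK and 23.9, 29.0 and 19.7 TPM in A549 Rec. GNAI1 had 20.3, 19.7 and 16.4 TPM in A549 MOCK and 19.2, 19.3 and 19.1 TPM in A549 Rec. GNAI2 was above GNAI1 in each of the 6 libraries, although their ranges over all libraries overlapped. GNAI3 followed at a mean of 8.91 TPM and GNAZ at 2.87 TPM. GNAO1, the main Go subunit of neurons, had 14 reads in all 6 libraries together (mean 0.03 TPM).

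The Gq/11 genes that activate phospholipase Cβ were expressed at like levels. GNA11 (chromosome 19, 3094410 to 3124004, plus strand) had 40.4, 40.4 and 29.9 TPM in A549 MOCK and 36.6, 39.5 and 35.1 TPM in A549 Rec. GNAQ had 38.1, 34.4 and 31.6 TPM in A549 MOCK and 37.1, 34.3 and 32.6 TPM in A549 Rec. GNA11 was above GNAQ in 4 of 6 libraries, so that on the TPM scale their order was within the spread between libraries, and 11.3% of the canonical exons of GNA11 lie opposite a long non-coding RNA with a mean of 86.1 TPM. GNA14 and GNA15, the α subunits of narrower tissue range, had 5 and 12 reads in all.

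The G12/13 genes, which couple receptors to RhoA, were GNA13 (chromosome 17, 65010715 to 65056839, minus strand) and GNA12. GNA13 had 63.8, 56.1 and 41.2 TPM in A549 MOCK and 59.2, 60.3 and 52.2 TPM in A549 Rec. GNA12 had 44.9, 43.6 and 30.6 TPM in A549 MOCK and 40.8, 42.8 and 38.6 TPM in A549 Rec, and was below GNA13 in each library.

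Summed over the 13 α genes, the level in A549 MOCK was 339 ± 61.3 TPM and that in A549 Rec was 349 ± 29.7 TPM (SD, n = 3 each). Gs held 35.1% ± 1.18 of it in A549 MOCK and 35.4% ± 0.996 in A549 Rec, G12/13 held 27.5% ± 1.02 and 28.1% ± 0.605, Gq/11 held 21.4% ± 1.45 and 20.6% ± 0.843, and Gi/o held 16.0% ± 0.294 and 15.8% ± 0.457 (SD, n = 3 each). The order of the classes was the same in the 6 libraries, and the ranges of A549 MOCK and A549 Rec overlapped in each class. The exact permutation test (two-sided, 3 libraries against 3, smallest possible p = 0.1) gave p = 0.7 for Gs, 0.7 for Gi/o, 0.5 for Gq/11 and 0.5 for G12/13, with adjusted p = 0.875 for each over the 10 shares tested. These shares do not depend on the scaling of a library.

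The shares did depend on the length by which reads were divided. The length recovered from the TPM of GNAS was 13320 bases, 7.18 times that of its canonical transcript (1854 bases), and GNAS is known for its many alternative exons. Among 50 members with a recovered length the median ratio was 1.42. With reads divided by canonical transcript length, Gs held 70.0% ± 0.827 of the α level in A549 MOCK and 70.5% ± 0.560 in A549 Rec. Gi/o then held 13.6% ± 0.162 and 13.3% ± 0.272, Gq/11 held 7.77% ± 0.600 and 7.45% ± 0.436, and G12/13 held 8.62% ± 0.346 and 8.70% ± 0.396 (SD, n = 3 each). Gs was the largest class on either scale, whereas the order of the other classes changed, and GNA13, which had 57.9% of the G12/13 level on the TPM scale, had 44.5% with canonical lengths, below GNA12. Likewise GNA11 held 59.2% to 64.4% of the Gq/11 level and GNAQ 35.5% to 40.5% with canonical lengths. The difference between the groups was smaller than the larger of their SDs in each class (exact permutation p = 0.4 for Gs, 0.3 for Gi/o, 0.5 for Gq/11 and 0.8 for G12/13, two-sided).

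**Figure D2:**
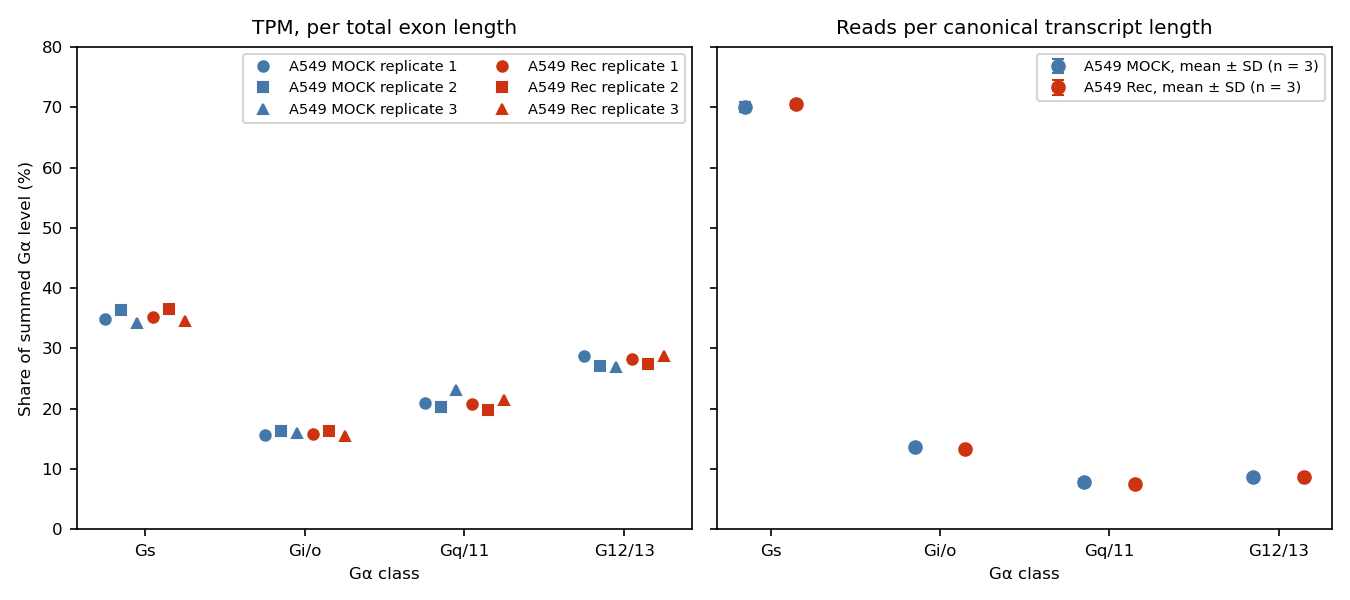
Share of the summed Gα level (%) held by each class, on the left from TPM with 1 point per library and on the right from reads per canonical transcript length as mean ± SD (n = 3 per group, error bars often smaller than the point). Gs lies at 34.1% to 36.5% on the left and at 69.2% to 71.1% over the libraries behind the right panel, and A549 MOCK (blue) and A549 Rec (red) lie side by side in each class.

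The β subunits were led by GNB2 and GNB1, the widely expressed forms. GNB2 (chromosome 7, 100673531 to 100679174, plus strand) had 255, 248 and 166 TPM in A549 MOCK and 244, 265 and 198 TPM in A549 Rec. GNB1 had 141, 136 and 105 TPM in A549 MOCK and 135, 145 and 130 TPM in A549 Rec. The lowest GNB2 value was above the highest GNB1 value, and GNB2 made up 59.2% ± 2.45 of the β level in A549 MOCK, against 59.3% ± 2.58 in A549 Rec (SD, n = 3 each, exact permutation p = 0.8, two-sided, adjusted p = 0.889). GNB4 and GNB5 followed at means of 9.32 and 9.31 TPM and could not be ordered on the TPM scale, each being the higher in 3 libraries. With canonical lengths GNB5 held 1.84% to 2.16% of the β level and GNB4 1.31% to 1.63%. Of the canonical exons of GNB4, 30.7% lie opposite a long non-coding RNA with a mean of 9.92 TPM. GNB5 is the divergent β form known to pair with RGS proteins of the R7 group, of which RGS9 and RGS11, outside the 51 genes, were at 3.35 and 1.13 TPM and RGS6 and RGS7 had 1 and 5 reads in all. GNB3 had 4.97, 5.31 and 7.98 TPM in A549 MOCK and 4.95, 4.68 and 4.97 TPM in A549 Rec, with A549 MOCK replicate 3 above the other 5 libraries, and 19.9% of its canonical exons lie opposite CDCA3 (mean 20.1 TPM).

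The γ subunits were led by GNG12 and GNG11, which end in different lipid signals as printed above. GNG12 (chromosome 1, 67701466 to 67833467, minus strand) had 149, 144 and 117 TPM in A549 MOCK and 142, 148 and 122 TPM in A549 Rec. GNG11 had 76.0, 74.3 and 71.2 TPM in A549 MOCK and 70.8, 68.1 and 77.5 TPM in A549 Rec, and was below GNG12 in each library. Over the 7 γ genes, the geranylgeranylated GNG12 held 60.9% ± 1.84 of the level in A549 MOCK, against 61.9% ± 3.42 in A549 Rec (SD, n = 3 each, exact permutation p = 0.7, two-sided, adjusted p = 0.875), and the farnesylated GNG11 held 29.8% to 37.0% over the libraries. GNG4 and GNG2 were at means of 4.60 and 2.01 TPM, and GNG7 was at 0.52 TPM.

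GNG5 and GNG10, which encode small ubiquitous γ subunits, are uncertain in these tables. GNG5 had 5.00, 9.49 and 4.65 TPM in A549 MOCK and 6.12, 4.62 and 3.07 TPM in A549 Rec, from 191 reads in all, and 42.7% of its canonical exons are shared with a long non-coding RNA on the same strand. GNG10 had 8 reads in all, and 90.5% of its canonical exons are shared with the readthrough gene DNAJC25-GNG10, which was listed at 0. The 4 listed pseudogenes of GNG5 and the 1 of GNG10 were also at 0, and how reads with several possible genes were counted is not given in the sources used here, so that the low values of these genes are uncertain. Of the γ genes outside the 51, chosen after their values were seen, GNG3 and the rod subunit GNGT1 were at means of 11.5 and 10.8 TPM, above GNG5, and they are not in the shares.

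RGS10, RGS2 and RGS19 held the upper ranks of the RGS proteins, the GTPase-activating proteins of Gα. RGS10, which acts on Gi family subunits (chromosome 10, 119499828 to 119542708, minus strand), had 29.3, 33.2 and 19.1 TPM in A549 MOCK and 35.3, 35.0 and 28.3 TPM in A549 Rec. RGS2, which acts mainly on Gq (chromosome 1, 192809039 to 192812283, plus strand), had 19.7, 21.5 and 32.4 TPM in A549 MOCK and 21.4, 23.7 and 27.3 TPM in A549 Rec. RGS19, a small member that binds Gi family subunits, had 25.9, 21.6 and 18.5 TPM in A549 MOCK and 24.0, 25.8 and 19.6 TPM in A549 Rec. RGS10 exceeded RGS2 in 5 of 6 libraries and RGS2 exceeded RGS19 in 2 of 6, and RGS2 was the only one of the 3 whose highest value in each group came from replicate 3.

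RGS14, which also carries a GoLoco motif, was at a mean of 6.78 TPM, and RGS17, RGS3, RGS20 and RGS12 had means between 4.31 and 3.03 TPM. On the TPM scale RGS17, RGS3 and RGS20 overlapped in range, whereas RGS12 was below RGS20 in each library. With canonical lengths this order changed. RGS3 then held 8.72% to 10.3% of the RGS level, RGS12 5.11% to 6.27%, RGS20 2.95% to 4.62% and RGS17 2.33% to 3.22%. RGS10 made up 28.0% ± 5.99 of the RGS level in A549 MOCK, against 31.3% ± 1.83 in A549 Rec (SD, n = 3 each, exact permutation p = 0.6, two-sided, adjusted p = 0.875). The difference of 3.33 percentage points was 0.0627 without A549 MOCK replicate 3 and 1.03 without both replicate 3 libraries. RGS16, RGS5 and RGS4, known as inducible or vascular RGS genes, had means of 0.77, 0.41 and 0.18 TPM and did not pass the filter. RGS5 appears in 2 rows of the table, the protein-coding gene and a row with the same symbol that is typed as antisense (mean 0.60 TPM), and the second was left out of all shares. RGS1, a lymphocyte gene, had 0 reads in each library, which allows up to 0.162 to 0.198 reads in every 1000000 by a floor of 3 reads per library, counting error only.

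The GPSM proteins bind GDP-loaded Gi through GoLoco motifs, and GPSM2 takes part in orienting the mitotic spindle. GPSM2 (chromosome 1, 108875350 to 108934545, plus strand) had 17.4, 15.2 and 12.5 TPM in A549 MOCK and 16.4, 18.1 and 14.2 TPM in A549 Rec. As 67.7% of its canonical exons lie opposite exons of CLCC1 (mean 28.8 TPM) and the strand setting of the counting is not given in the sources used here, its level is uncertain. GPSM1 was lower in each library, at a mean of 7.77 TPM, and GPSM3, a gene of blood cells, had 1 read in all.

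RIC8A and RIC8B are chaperones of newly made Gα subunits, RIC8A for the Gi, Gq and G12/13 classes and RIC8B for Gs, and PDCL helps the chaperonin CCT to assemble Gβγ. RIC8A (chromosome 11, 207511 to 215113, plus strand) had 53.9, 54.1 and 46.1 TPM in A549 MOCK and 52.1, 57.2 and 52.7 TPM in A549 Rec. PDCL had 25.8, 24.7 and 14.5 TPM in A549 MOCK and 21.6, 23.9 and 18.2 TPM in A549 Rec, and RIC8B was at a mean of 9.35 TPM. The order RIC8A, PDCL, RIC8B was kept in each library with no overlap of ranges.

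GRK2 and GRK6 were the GRKs with the highest levels. GRK2, which Gβγ recruits to the membrane (chromosome 11, 67266410 to 67286556, plus strand), had 41.0, 46.4 and 38.4 TPM in A549 MOCK and 41.5, 45.3 and 40.8 TPM in A549 Rec. GRK6, which is held at the membrane by palmitoylation, had 40.0, 45.8 and 29.7 TPM in A549 MOCK and 41.8, 44.8 and 40.3 TPM in A549 Rec. GRK2 exceeded GRK6 in 5 of 6 libraries with overlapping ranges, whereas with canonical lengths GRK2 held 50.2% to 56.8% of the GRK level and GRK6 32.5% to 37.7%. GRK5, a relative of GRK6, was at a mean of 8.35 TPM, GRK3, a relative of GRK2, at 7.15 TPM and GRK4, known mainly from testis and kidney, at 1.30 TPM. GRK2 made up 43.7% ± 3.22 of the GRK level in A549 MOCK, against 41.6% ± 0.666 in A549 Rec (SD, n = 3 each, exact permutation p = 0.4, two-sided, adjusted p = 0.875). The difference of -2.13 percentage points was -0.285 without A549 MOCK replicate 3 and -0.571 without both replicate 3 libraries. The photoreceptor kinases GRK1, the known partner of recoverin, and GRK7 had 1 read and 0 reads over the 6 libraries.

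Among the arrestins, ARRB2 exceeded ARRB1. ARRB2 (chromosome 17, 4710489 to 4721499, plus strand), β-arrestin 2, had 45.4, 43.96 and 34.8 TPM in A549 MOCK and 43.9, 48.3 and 38.2 TPM in A549 Rec. ARRB1, β-arrestin 1, had 16.5, 14.5 and 7.12 TPM in A549 MOCK and 13.9, 14.8 and 8.79 TPM in A549 Rec, with the replicate 3 libraries below the other 4. ARRDC3, an α-arrestin linked to receptor ubiquitination, had 12.6, 14.7 and 15.8 TPM in A549 MOCK and 12.3, 12.2 and 14.2 TPM in A549 Rec, and was above ARRB1 in 3 of 6 libraries. With canonical lengths their ranges did not overlap, with 9.80% to 16.8% of the arrestin level for ARRDC3 and 5.16% to 9.36% for ARRB1. The visual arrestin SAG was listed at 0 in each library.

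ARRB2 made up 61.0%, 60.1% and 60.2% of the summed level of these 3 genes in A549 MOCK, and for A549 Rec the values were 62.6%, 64.1% and 62.5%. This was the only 1 of the 10 shares whose groups did not overlap, with means of 60.4% ± 0.503 and 63.1% ± 0.921 (SD, n = 3 each) and a difference of 2.61 percentage points. The exact permutation test gave p = 0.1 (two-sided), the smallest that 3 libraries against 3 allow, and adjusted p = 0.875 over the 10 shares, so that the difference did not pass the correction. With reads per canonical transcript length the means were 79.1% ± 1.06 and 81.0% ± 1.02 (SD, n = 3 each) and the exact permutation p was 0.2 (two-sided).

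A549 Rec was then compared with A549 MOCK over the 17408 tested genes with limma on log2(TPM + 1), so that the differences below are on the log2(TPM + 1) scale and understate those of low genes. Of the 41 members tested, 0 had an adjusted p under 0.05, against 0.00574% of all genes tested (1 gene, RCVRN), and the adjusted p was at least 0.9997 for each member. At an unadjusted p under 0.05 the count was also 0 of 41 members, against 2.06% of all genes. With limma and voom weights on the recovered reads, 0 members passed by either p, and 1.73% of all genes had an unadjusted p under 0.05. With the replicate number as a block, 1 member, RGS10, had an unadjusted p under 0.05 (adjusted p = 0.998, limma), against 4.11% of all genes.

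RGS10 was higher in A549 Rec in 3 of 3 same-numbered pairs, by 0.29 (SE 0.21, 95% interval -0.20 to 0.79, adjusted p = 0.9997, limma with Benjamini-Hochberg adjustment). The difference fell to 0.07 without A549 MOCK replicate 3 and to 0.17 without both replicate 3 libraries (adjusted p = 0.946 and 0.934, limma). After rescaling without mitochondrially encoded genes it was 0.25 (adjusted p = 0.9995, limma). RGS20, a regulator of Gz and Gi, had an unadjusted p under 0.05 when A549 Rec replicate 3 was left out, with a difference of 0.38 (SE 0.15, adjusted p = 0.995, limma), and 2.5% of all genes had such a p in that fit.

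Among the leading members of the 11 classes, RGS10 had the largest log2 difference (A549 Rec minus A549 MOCK), which is given above. For the others it was 0.08 for GNAS (SE 0.18), 0.06 for GNAI2 (SE 0.21), 0.02 for GNA11 (SE 0.14), 0.11 for GNA13 (SE 0.17), 0.10 for GNB2 (SE 0.21) and 0.01 for GNG12 (SE 0.14). It was 0.11 for GPSM2 (SE 0.15), 0.07 for RIC8A (SE 0.11), 0.02 for GRK2 (SE 0.11) and 0.07 for ARRB2 (SE 0.15). Each of these 10 differences was below its standard error. Without A549 MOCK replicate 3 all of them were negative, from -0.15 for GNAI2 to -0.0014 for RIC8A.

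The members with the smallest unadjusted p on the higher side were RGS10, GRK3 and RGS17. GRK3 had 7.49, 7.50 and 4.83 TPM in A549 MOCK and 7.92, 7.87 and 7.26 TPM in A549 Rec, a difference of 0.21 (SE 0.17). RGS17, which acts on Gz and Gi, had 3.57, 4.75 and 3.86 TPM in A549 MOCK and 4.71, 4.25 and 4.71 TPM in A549 Rec, a difference of 0.14 (SE 0.14). On the lower side they were GNB3, with a difference of -0.25 (SE 0.18), GNG5 with -0.38 (SE 0.30) and ARRDC3 with -0.14 (SE 0.12). Without A549 MOCK replicate 3 the difference was 0.03 for GRK3, -0.07 for GNB3 and -0.08 for ARRDC3, and without both replicate 3 libraries it was 0.07, -0.08 and -0.14.

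GNG5 had the largest difference of the members, and A549 MOCK replicate 2 alone, at 9.49 TPM, stood above 6.12 TPM, the highest of the other 5 libraries. Without that library the difference was -0.09. The 95% interval lay within 1 log2 unit of 0, that is within a 2-fold change on this scale, for 40 of 41 members, and the exception was GNG5 (-1.07 to 0.32). Beside GNG5, the intervals that reached farthest from 0 were those of RGS10 and ARRB1 (-0.72 to 0.78).

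**Figure D3:**
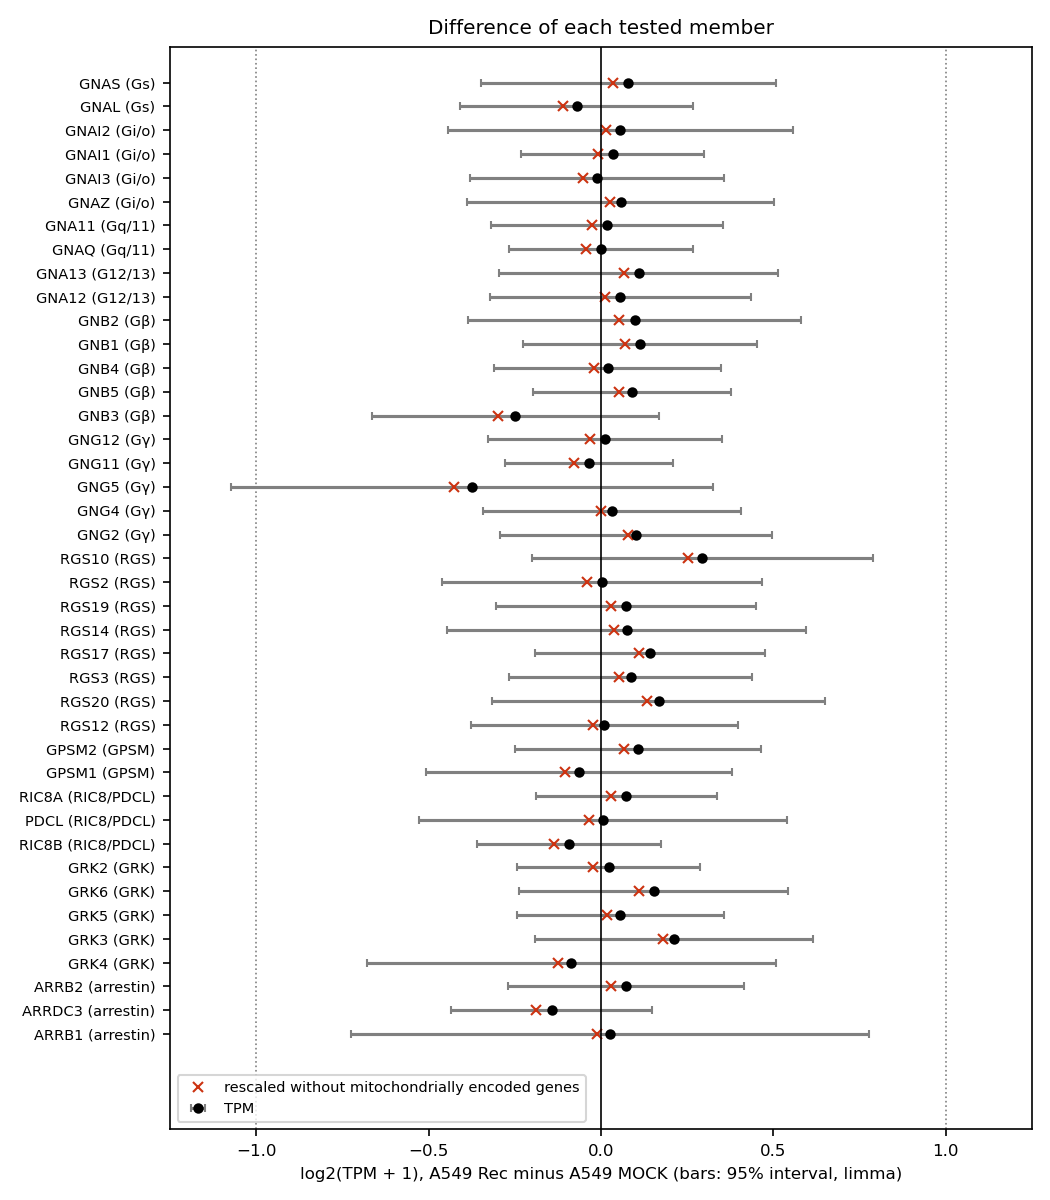
Difference of each of the 41 tested members between A549 Rec and A549 MOCK in log2(TPM + 1), with points as estimates and bars as 95% intervals from limma (n = 3 per group), and crosses for the estimate after TPM was rescaled without mitochondrially encoded genes. Each interval crosses 0 and only that of GNG5 passes a dotted line at 1 log2 unit.

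Of the 41 tested members, the groups did not overlap for 0 with A549 Rec higher and 0 with A549 Rec lower, against 2.47% and 2.69% of all genes tested. After TPM had been rescaled without mitochondrially encoded genes, the groups did not overlap for GNB1 and GRK3, higher in A549 Rec, and for GNAL, lower in A549 Rec, against 2.78% and 3.84% of all genes. All 3 had an adjusted p of at least 0.9995 in that fit (limma). GNB5, GRK3, RGS10 and GNG2 were higher in A549 Rec in 3 of 3 same-numbered pairs, against 13.1% of all genes, and GNB3, RIC8B and ARRDC3 were lower in 3 of 3, against 9.79%.

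The estimate was above 0 for 31 members and below 0 for 10, with a median of 0.05, where 9853 of the 17408 genes were above 0 with a median of 0.02. This balance differed between scalings and with A549 MOCK replicate 3, the library with the highest mitochondrial share. It was 21 against 20 with a median of 0.01 after rescaling without mitochondrially encoded genes (all genes -0.02). Without A549 MOCK replicate 3 it was 7 against 34 with a median of -0.07 (all genes -0.06). Without both replicate 3 libraries it was 18 against 23 with a median of -0.009 (all genes -0.012).

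The members also differed between replicate 3 and the other replicates, in the libraries with the highest mitochondrial shares (34.5% and 26.9%, against 13.3% to 17.3%). For 29 of the 41 members both replicate 3 libraries lay below the other 4, against 44% of all genes tested, and RGS2 was the only member with both above, against 6.4% of all genes. The mean of the replicate 3 libraries over that of the other 4 had a median of 0.811 over the members and 0.863 over all tested genes. After rescaling without mitochondrially encoded genes these medians were 0.990 and 1.06.

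After that rescaling, 10 members lay below in both replicate 3 libraries, against 14.8% of all genes, among them GNAS, GNAI2, GNAI3, GNAZ, GNB2 and ARRB1, and 8 lay above, against 27.3% of all genes, among them GNAI1, GNB3, GNG11, RGS2 and GRK2. ARRB1 had the lowest ratio, 0.533 before and 0.653 after rescaling, and RGS2 the highest, 1.38 before and 1.71 after. The rescaled ratio was 0.850 for GNAI2 and 0.939 for GNAI3 beside 1.11 for GNAI1, and 1.26 for GNG11 beside 1.00 for GNG12. What made the replicate 3 libraries differ was not tested, and the labels do not say what a replicate number stands for. The sample titles of these libraries carry no number, unlike those of the other libraries, and only their descriptions give it. The methods name both NovaSeq and GenoLab M sequencing without assigning libraries to either.

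**Figure D4:**
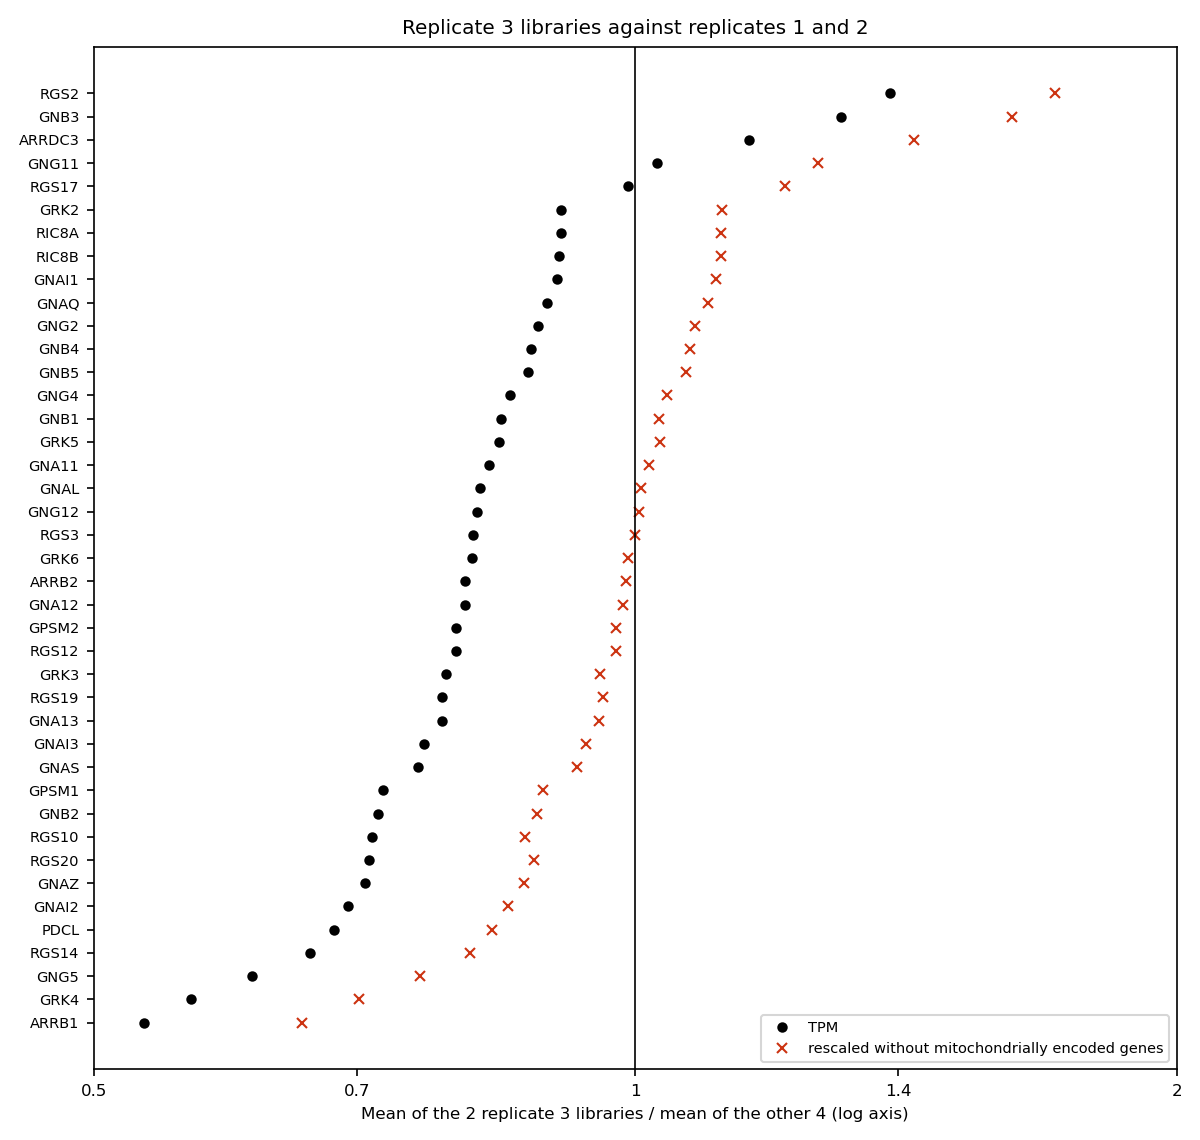
Mean of the 2 replicate 3 libraries over the mean of the other 4 for each tested member (log axis), as deposited TPM (points) and after rescaling without mitochondrially encoded genes (crosses). Points reach from 0.533 for ARRB1 to 1.38 for RGS2, and the crosses spread on both sides of 1.

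RGS4, which regulates Gi and Gq and was singled out after its values were seen, had 4, 2 and 3 reads in the A549 MOCK libraries, and those of A549 Rec had 7, 7 and 5 reads. The groups did not overlap, but the gene was at 0.18 TPM on average, did not pass the filter, and had an adjusted p of 0.9996 in limma without the filter.

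Other members of these families were looked at from a list of 29 genes. Of these, 10 passed the filter, 0 had an adjusted or unadjusted p under 0.05 (limma), and 17 had at most 3 reads in every library, which included the visual forms GRK1, GRK7, SAG and PDC. The highest were PDCL3, a relative of PDCL, with 35.3 ± 9.81 TPM in A549 MOCK and 39.0 ± 6.18 TPM in A549 Rec, and the α-arrestin ARRDC2 with 18.3 ± 1.20 and 17.6 ± 1.17 TPM (SD, n = 3 each). The cone transducin gene GNAT2, also outside the rule, was at 6.20 TPM.

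Partners that act next to the 51 genes were taken from 5 lists. Of 12 effectors of Gq and G12/13, 10 were tested, 0 had an adjusted or unadjusted p under 0.05, and RHOA (397 TPM) and the exchange factor ARHGEF1 (48.6 TPM) had the highest means. PLCB3, at 40.8 TPM, was the phospholipase Cβ gene with the highest level, whereas PLCB2, the form of blood cells, had 8 reads in all. Of 12 effectors of Gβγ, 4 were tested and 0 passed, with PAK1 (27.0 TPM) and PIK3CB (17.6 TPM) the highest, while the 4 potassium channel genes KCNJ3, KCNJ5, KCNJ6 and KCNJ9 did not pass the filter.

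The 8 subunit genes of the chaperonin CCT, which folds Gβ together with PDCL, were all tested and 0 passed, with CCT7 (321 TPM) and CCT4 (316 TPM) the highest. All 11 genes for the lipid modification of α and γ subunits were tested and 0 passed, with the palmitoyltransferase ZDHHC7 (72.2 TPM) and the thioesterase LYPLA2 (70.0 TPM) the highest, and the prenyltransferase genes PGGT1B, FNTA and FNTB at 5.80, 6.51 and 8.27 TPM. Of 10 genes for the clathrin-dependent endocytosis of receptors, 9 were tested and 0 passed, with the adaptor subunit AP2S1 (370 TPM) and the clathrin light chain CLTA (315 TPM) the highest. By limma the count at an unadjusted p under 0.05 was 0 in each of these 5 lists, against 2.06% of all genes. The median log2 difference was 0.02 for the effectors of Gq and G12/13, 0.10 for those of Gβγ, 0.05 for CCT, 0.05 for lipid modification and 0.09 for endocytosis, against 0.02 over all genes tested. These medians are from all libraries on the deposited scale. Over all genes the median was -0.06 without A549 MOCK replicate 3 and -0.02 after rescaling without mitochondrially encoded genes. Such values are not given for the lists.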

How the data were processed

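RNA sequencing of A549 Rec (3 libraries) and A549 MOCK (3 libraries) was analysed, with groups and replicate numbers taken from the labels. According to the methods and the submitters' processing notes, the authors trimmed the reads (Trimmomatic 0.38), mapped them to GRCh38 (HISAT2 2.1.0) and counted them per gene (featureCounts 1.6.3), and they deposited TPM. The notes name a mouse build, but of 58207 listed identifiers in GENCODE v44, 51658 had the human chromosome and the start or end of GRCh38. The table's annotation columns gave symbols and positions. Reads and gene lengths were recovered as the whole numbers that gave the TPM (tolerance 0.01 reads, 29900 of 29900 detected genes), so that being whole is no check of them. The limma intervals rest on the spread between libraries, whereas the floors on reads cover counting error only.

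The test was limma 3.58.1 (R 4.3.3, trend) on log2(TPM + 1) for genes reaching 1 TPM in 3 or more libraries, with Benjamini-Hochberg adjustment over all of them. Shares were tested with exact permutation tests, two-sided (scipy 1.17.1). The scripts were tested on simulated data. The data simulated for limma held no shift of the replicate 3 libraries, so they do not show how the fit performs with it. With the mean of each arm subtracted, same-numbered libraries correlated over genes at 0.115, 0.164 and 0.342 for replicates 1, 2 and 3. Within an arm the remainders cancel out, so a shift shared by both replicate 3 libraries can alone make the other correlations positive. The values therefore cannot tell whether replicates 1 and 2 were paired. A fit with a replicate block was also made. The labels do not say what the numbers mark. The members and lists were chosen with earlier results of these data known. Differences were named for the highest member of each class and the 3 smallest unadjusted p in each direction, and for other lists the 2 highest levels. Alternatives covered the pseudocount, filter, normalization, mitochondrial rescaling, trend, block and each library. Voom on recovered reads, both replicate 3 libraries left out and canonical lengths were added after seeing the data.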

Additional observations from a re-analysis of the deposited data

How the results depend on the processing

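The count of 0 members with an adjusted p under 0.05 was the same in each alternative fit. The count with an unadjusted p under 0.05 was 1 with the replicate block, and 0 to 1 with each library left out. The block changed no other call. Without both replicate 3 libraries the log2 difference was -0.016 for GNAS, -0.016 for GNAI2, -0.086 for GNA11, -0.0025 for GNA13, -0.014 for GNG12 and -0.0093 for GRK2. For GNA11, GNG12 and GRK2 in turn it was -0.0083, -0.046 and -0.0062 with quantile normalization, -0.025, -0.033 and -0.022 after rescaling without mitochondrially encoded genes, and -0.019, -0.025 and -0.013 with voom. With each library left out in turn, it ranged from -0.10 to 0.18 for GNAS, -0.15 to 0.19 for GNAI2, -0.12 to 0.089 for GNA11, -0.066 to 0.24 for GNA13, -0.10 to 0.22 for GNB2, -0.098 to 0.095 for GNG12, -0.013 to 0.21 for GPSM2, -0.0014 to 0.11 for RIC8A, -0.038 to 0.095 for GRK2 and -0.045 to 0.16 for ARRB2, and the low end came from leaving out A549 MOCK replicate 3. The difference in share, in percentage points, then ranged from -0.238 to 0.965 for Gs, -0.392 to 0.0643 for Gi/o, -1.31 to 0.0576 for Gq/11, -1.43 to 2.05 for GNAI2 within Gi/o, -1.28 to 1.61 for GNB2 within Gβ and -0.419 to 2.90 for GNG12 within Gγ, and without both replicate 3 libraries it was 0.0880 for Gi/o and -0.0108 for G12/13. The log2 differences that reversed passed no test. The exact test of shares could not give a p under 0.05, and the cause of the reversals was not tested. With canonical lengths, the share over the 6 libraries was 70.3% for Gs, 13.5% for Gi/o, 7.61% for Gq/11 and 8.66% for G12/13, by the construction of that alternative. With 3 libraries against 3, an exact permutation p cannot fall below 0.1.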
